A study of Mus musculus with 2 samples.

Results

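Collagens are the family of triple-helical matrix proteins, and each collagen chain gene encodes 1 of the chains that wind into a helix. The chains were chosen by name: 42 rows of the deposited table were named COL, a type number, A and a chain number, and these gave 41 genes among 25430 distinct names. Col1a1 was the repeated name, and its row with the higher mean was used. RNA was sequenced from primary mouse embryonic fibroblasts, connective tissue cells grown from embryos at day E13.5 of Sptbn1+/- matings and cultured in DMEM/F12 with 10% fetal bovine serum. There was 1 wild-type library and 1 library of the Sptbn1 knockout, homozygous per the series' title. Sptbn1 encodes beta-2 spectrin (β2SP), a membrane skeleton protein described as an adaptor of SMAD3 and SMAD4, and the comparison asks how expression differs between these genotypes. With 1 library per genotype no difference had a replicate check, and every statement compares 2 libraries. How many embryos each culture came from is not given in the sources used here.

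Collagen chains fold in the endoplasmic reticulum as trimers of like or different chains and are secreted. Fibrillar collagens, chiefly types I, III and V in fibroblasts, form banded fibrils. Type IV forms the sheet of basement membranes, type VI forms beaded microfibrils, and fibril-associated collagens (FACITs) sit on the fibril surface. Fibroblasts are the main source of types I, III, V and VI, while types II, IX and XI are the classical collagens of cartilage. Transforming growth factor-β (TGF-β), acting through SMADs, is a known inducer of type I collagen.

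Values are FPKM (mapped fragments per kilobase of gene model, adjusted for library depth) in the form the authors deposited. Each difference is given as log2((knockout FPKM + 1)/(wild-type FPKM + 1)), which makes changes of low genes look smaller, and paired values joined by the word against give the knockout first. A mean of at least 1 FPKM counted as measured. This left 11070 genes, with a median log2 ratio of -0.05 and a 5th to 95th percentile range of -0.36 to 0.28. Sptbn1 itself was listed at 36.6 FPKM (knockout) and 69.6 FPKM (wild type). The library labelled knockout was the lower, with 52.5% of the wild-type value remaining. Whether both copies of Sptbn1 were disrupted in that culture was not tested. All 10 fibroblast markers were measured, with 9 of 10 below 0, and they summed to 2057 FPKM (knockout) and 2259 FPKM (wild type). Macrophage markers, also with 9 of 10 below 0, summed to 747 FPKM (knockout) and 1218 FPKM (wild type). Below 0 were 63.1% of all measured genes. Most of both macrophage sums was the joined row of Lyz1 and Lyz2, at 572 against 979 FPKM. At least 1.2-fold lower were 7 macrophage markers (10.6% of all measured genes), while Tyrobp, Adgre1 and Ptprc were within 1.2-fold. The part of the macrophage markers in the collagen values was not tested. The 6 endothelial markers were all under 1 FPKM. Fewer cells of a type and less RNA per cell cannot be told apart in such bulk libraries.

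Of the 41 chains, 25 were measured and 16 lay below 1 FPKM. Nearly the whole collagen pool was alike in the libraries: the 41 chains summed to 2632 FPKM (knockout) and 2690 FPKM (wild type). The median log2 ratio of the 25 was -0.02, with 11 above and 14 below 0, beside 36.9% above and 63.1% below 0 over all measured genes. Higher in the knockout by at least 1.2-fold were 2 chains, Col2a1 and Col14a1, where 5.54% of all measured genes passed that limit. At least 1.2-fold lower was 1 chain, Col7a1, where 10.6% of all measured genes passed. Col2a1, the cartilage fibril chain, was the one chain past 1.5-fold (1.04% of all measured genes were that much higher and 1.23% that much lower), and it was also past 2-fold (0.361% higher, 0.379% lower). Col2a1 counted as measured only through its knockout value, since its wild-type value was 0.265 FPKM. The shares beside it are therefore a description and no test of it.

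**Figure D1:**
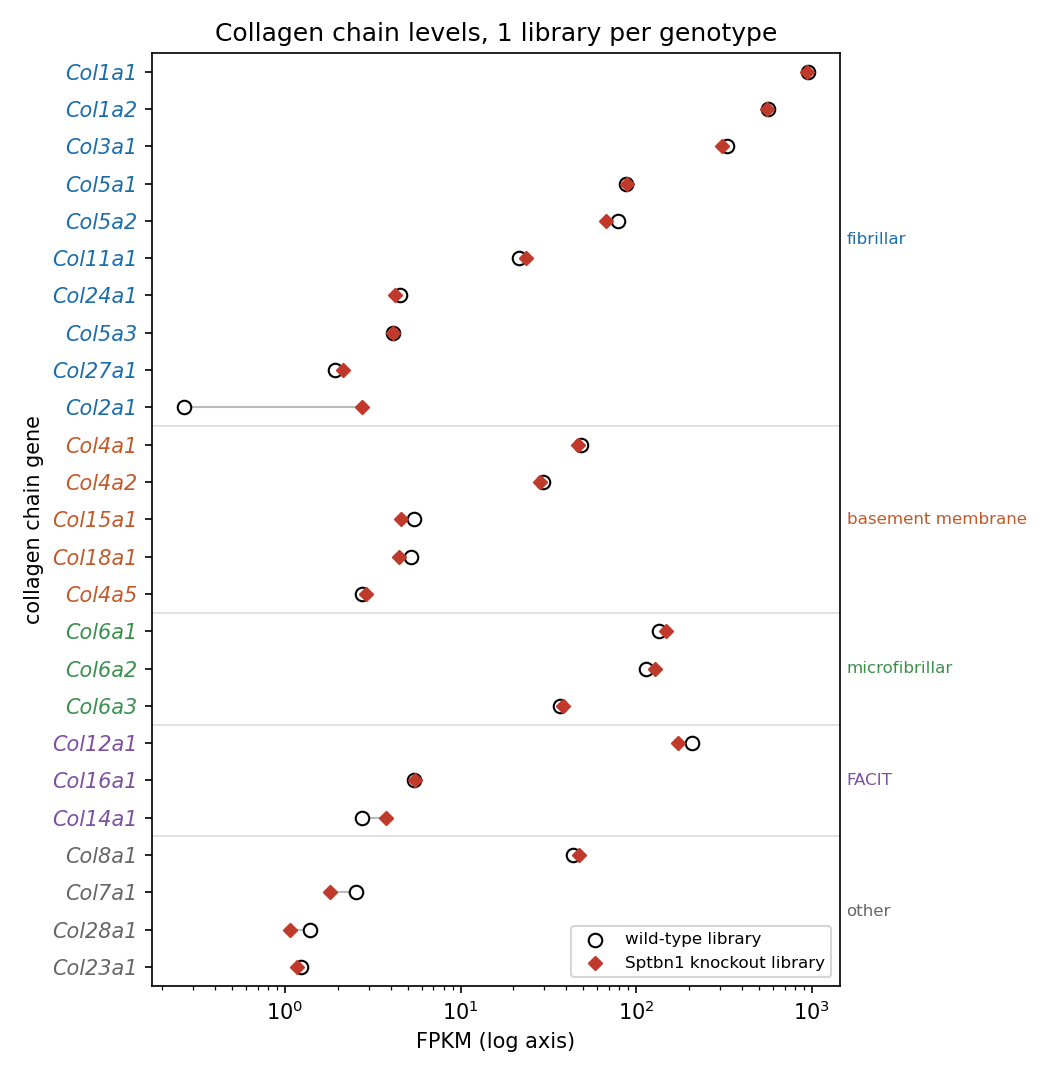
FPKM (log axis) of the 25 measured collagen chains, grouped by class, with open circles for the wild-type library and diamonds for the Sptbn1 knockout library. The symbols nearly coincide from Col1a1 at 939 and 957 FPKM down to the chains near 1 FPKM, and Col2a1 alone is widely separated, at 2.76 and 0.265 FPKM.

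Type I, the main structural collagen of fibroblasts, dominated the pool. Col1a1 was at 939 FPKM (knockout) and 957 FPKM (wild type), rank 13 and rank 18 among all names of the table. Col1a2, the partner chain of the type I trimer, was at 556 FPKM (knockout) and 562 FPKM (wild type). Both chains together made 56.8% of the collagen FPKM of the knockout and 56.5% of that of the wild type. The ratio of Col1a1 to Col1a2, compared per length within a library, was 1.69 in the knockout and 1.70 in the wild type. These values leave out the second row of Col1a1, at 132 against 94.7 FPKM. With repeated names summed the log2 ratio of Col1a1 was 0.03, where the row used gave -0.03. Col1a1 and Col1a2 had p-values of 0.025612 and 0.035017 according to the authors' deposited table, with levels at 98.2% and 98.9% of the wild type. Such p-values, from 1 library per genotype, rest on no measured variation between cultures of a genotype. They also did not follow the size of the difference. Col12a1 and Col5a2, at 83.8% and 85.6% of the wild type, had 0.398191 and 0.201384 in the authors' deposited table.

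The other measured fibrillar chains all lay within 1.2-fold, apart from Col2a1. Col3a1, the fibril collagen of elastic soft tissue, was at 306 FPKM (knockout) and 328 FPKM (wild type), a log2 ratio of -0.10. The type V chains, which start and limit the width of type I fibrils, differed among themselves. Col5a1 was at 89.2 FPKM (knockout) and 87.7 FPKM (wild type) (log2 ratio 0.02), whereas Col5a2 was at 67.7 against 79.1 FPKM (-0.22). The ratio of Col5a1 to Col5a2 was thus 1.32 (knockout) and 1.11 (wild type). Col5a3, the minor type V chain, was at 4.14 against 4.15 FPKM. Col24a1 and Col27a1, fibrillar chains of developing bone and cartilage, were at 4.25 against 4.51 FPKM and at 2.14 against 1.92 FPKM.

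Col2a1, the gene of the main cartilage fibril collagen, was at 2.76 FPKM (knockout) and 0.265 FPKM (wild type). The ratio of the FPKM themselves was 10.4, and the log2 ratio 1.57. The authors' deposited table gave it a p-value of 2.22e-16. Even so Col2a1 made only 0.105% of the collagen FPKM of the knockout library, against 0.00985% in the wild-type library. Type XI copolymerises with type II in cartilage, and the listed values of its chains differed in opposite directions, those of Col11a2 resting on few fragments. Col11a1, also made by fibroblasts, was at 23.5 against 21.4 FPKM (0.13), and Col11a2 was at 0.0607 FPKM (knockout) and 0.157 FPKM (wild type), 38.7% of the wild-type value.

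Cartilage markers other than collagens were mostly near 0 in both libraries. Of the 10 chondrocyte markers, Sox9 alone reached 1 FPKM. Sox9, the transcription factor that drives Col2a1 in chondrocytes, was at 5.39 FPKM (knockout) and 4.26 FPKM (wild type) (log2 ratio 0.28). Its partner factors Sox5 and Sox6 were at 0.401 against 0.510 FPKM and at 0.536 against 0.833 FPKM. Acan, the cartilage proteoglycan aggrecan, was at 0.222 against 0.228 FPKM, and the link protein gene Hapln1 at 0.0225 against 0.0977 FPKM. The cartilage matrix genes Comp, Matn3 and Matn1 were at 0.0486 against 0.0302 FPKM, at 0.190 against 0.177 FPKM and at 0.0299 FPKM against a listed 0. Cnmd and Snorc were listed at 0 in both libraries. The 10 markers summed to 6.84 FPKM (knockout) and 6.13 FPKM (wild type), and their part in the Col2a1 difference was not tested.

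**Figure D2:**
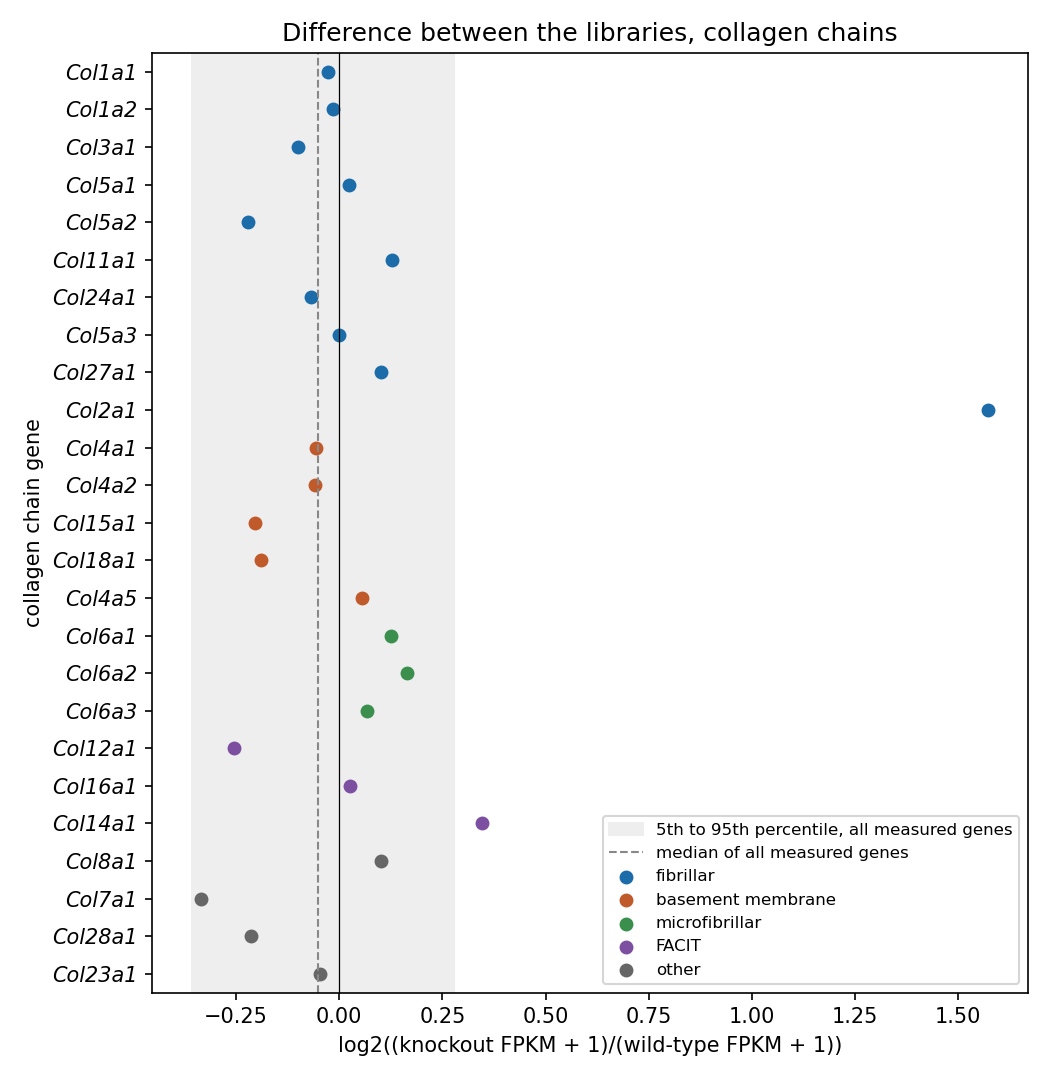
Log2((knockout FPKM + 1)/(wild-type FPKM + 1)) of the 25 measured collagen chains, coloured by class, with a grey band from the 5th to the 95th percentile (-0.36 to 0.28) and a dashed line at the median (-0.05) of all 11070 measured genes. Col2a1 (1.57) and Col14a1 (0.35) lie right of the band, and the other 23 chains lie inside it.

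Basement membrane collagens were near the median of all measured genes (-0.05), with a median log2 ratio of -0.06 over 5 measured chains of 8. None passed 1.2-fold. The chains of the common type IV network, Col4a1 and Col4a2, are neighbours on chromosome 8. Col4a1 was at 46.3 FPKM (knockout) and 48.2 FPKM (wild type), 96.1% of the wild-type value. Col4a2 was at 28.4 against 29.6 FPKM, or 95.8%. Their ratio was 1.63 in both libraries. The multiplexins Col15a1 and Col18a1, which carry the endostatin-type fragments at their ends, were at 4.56 against 5.41 FPKM (-0.20) and at 4.48 against 5.24 FPKM (-0.19).

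Col4a5 and Col4a6, neighbours on chromosome X that encode chains of a network of smooth muscle and skin, differed in their ratios. Col4a5 was at 2.89 FPKM (knockout) and 2.75 FPKM (wild type), 105% of the wild-type value. Col4a6 was at 0.509 against 0.237 FPKM, 215% of the wild-type value, so that the ratio of Col4a5 to Col4a6 was 5.68 in the knockout and 11.6 in the wild type. Col4a3 and Col4a4, neighbours on chromosome 1 and chains of the kidney filter network, were at 0.0130 against 0.0444 FPKM and at 0.0648 against 0.0803 FPKM.

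The 3 measured microfibrillar chains, all of type VI, were higher, though none by 1.2-fold. Col6a1 was at 148 FPKM (knockout) and 135 FPKM (wild type) (log2 ratio 0.12), and its chromosome 10 neighbour Col6a2 was at 128 against 114 FPKM (0.16). Col6a3, the largest of the 3 chains of the common trimer, was at 38.6 against 36.8 FPKM (0.07). The ratio of Col6a1 to Col6a2 was 1.16 (knockout) and 1.19 (wild type), and that of Col6a3 to Col6a1 was 0.261 and 0.272. Type VI made 11.9% of the collagen FPKM of the knockout and 10.6% of that of the wild type. Col6a6 lay below 1 FPKM, at 0.119 against 0.0640 FPKM.

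The FACITs went both ways. Col12a1, the fibril-associated chain of tendon and skin and the fourth most abundant chain here, was at 173 FPKM (knockout) and 206 FPKM (wild type) (log2 ratio -0.25). Col14a1, its relative on mature fibrils, was at 3.76 against 2.74 FPKM, a log2 ratio of 0.35 and 137% of the wild-type value. The authors' deposited table gave Col14a1 a p-value of 0.0384592 and Col12a1 one of 0.398191. Col16a1 was at 5.52 against 5.41 FPKM (0.03). The remaining 6 FACIT chains were all below 1 FPKM, from Col22a1, listed at 0 and 0.00572 FPKM, to Col9a3 at 0.929 against 0.795 FPKM.

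Among other collagens, Col7a1, which builds the anchoring fibrils under epithelia, was at 1.81 FPKM (knockout) and 2.55 FPKM (wild type) (log2 ratio -0.34). Col8a1, a network collagen of vessel walls and cornea, was at 47.1 against 43.9 FPKM (0.10), while its partner chain Col8a2 was at 0.396 against 0.475 FPKM. Col28a1 was at 1.07 against 1.40 FPKM (-0.21) and the membrane collagen Col23a1 at 1.17 against 1.24 FPKM (-0.05). Col10a1, the marker of hypertrophic cartilage, was at 0.630 against 0.449 FPKM, and the authors' deposited table gave it a p-value of 0.046128. Col13a1 was listed at 0 in both libraries. Of the 25 measured chains 4 had p-values under 0.05 by the authors' deposited table, where 5.6% of all measured genes did: Col1a1, Col1a2, Col2a1 and Col14a1.

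Counting error was estimated for the 27 chains with a mean below 5 FPKM. From the commonest ratio among 3100 rows with low nonzero values (mean under 0.3 FPKM), the FPKM worth of 1 fragment in the knockout was 1.61 times that in the wild type, so the knockout library was the shallower. Genes with a single transcript fell on steps of 0.0590 (knockout) or 0.0367 (wild type) FPKM times kilobases, so FPKM times the length of the longest coding transcript gives an approximate number of fragments. Exact binomial 95% intervals of the FPKM ratio from these numbers cover counting error only, not the spread between cultures, and are set against 1 on the deposited scale.

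Col2a1 rested on about 239 fragments (knockout) and 37 (wild type), a ratio of 10.4 with an interval of 7.32 to 15.1. Col9a1, a chain of the type IX collagen that coats cartilage fibrils, was at 0.148 against 0.00916 FPKM, about 10 fragments against 1, with a ratio of 16.1 and an interval of 2.29 to 697. Of its type IX partners, Col9a2 rested on about 3 fragments against 4, with an interval of 0.177 to 7.12, and Col9a3 on about 48 against 66, with an interval of 0.789 to 1.72. Col4a6 rested on about 57 fragments against 43, a ratio of 2.15 with an interval of 1.41 to 3.24, and Col4a5 on 320 against 489, with an interval of 0.911 to 1.21. The type IV chains Col4a3 and Col4a4 had intervals that held 1 (0.0342 to 1.51 and 0.352 to 1.73). Col11a2 rested on about 6 fragments against 26, with an interval of 0.125 to 0.921. The authors' deposited table gave it a p-value of 0.0517006.

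Of the 14 chains below 1 FPKM with fragments in both libraries, the interval lay above 1 for 2 (Col9a1 and Col4a6), below 1 for 1 (Col11a2) and held 1 for 11. For these 11, among them Col10a1 (interval 0.848 to 2.29) and Col6a6 (0.918 to 4.11), no difference was detectable at this depth. Of the 11 chains between 1 and 5 FPKM the interval lay above 1 for Col2a1 and Col14a1 (1.2 to 1.57), and below 1 for Col7a1 (0.616 to 0.819), Col15a1 (0.746 to 0.953) and Col18a1 (0.757 to 0.962). The share of all low genes with an interval off 1 was not computed, so these counts have no background. Over all measured genes 63.1% were below 0 on this scale. On a common FPKM sum the log2 ratios of Col7a1, Col15a1 and Col18a1 were -0.02, 0.19 and 0.20.

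**Figure D3:**
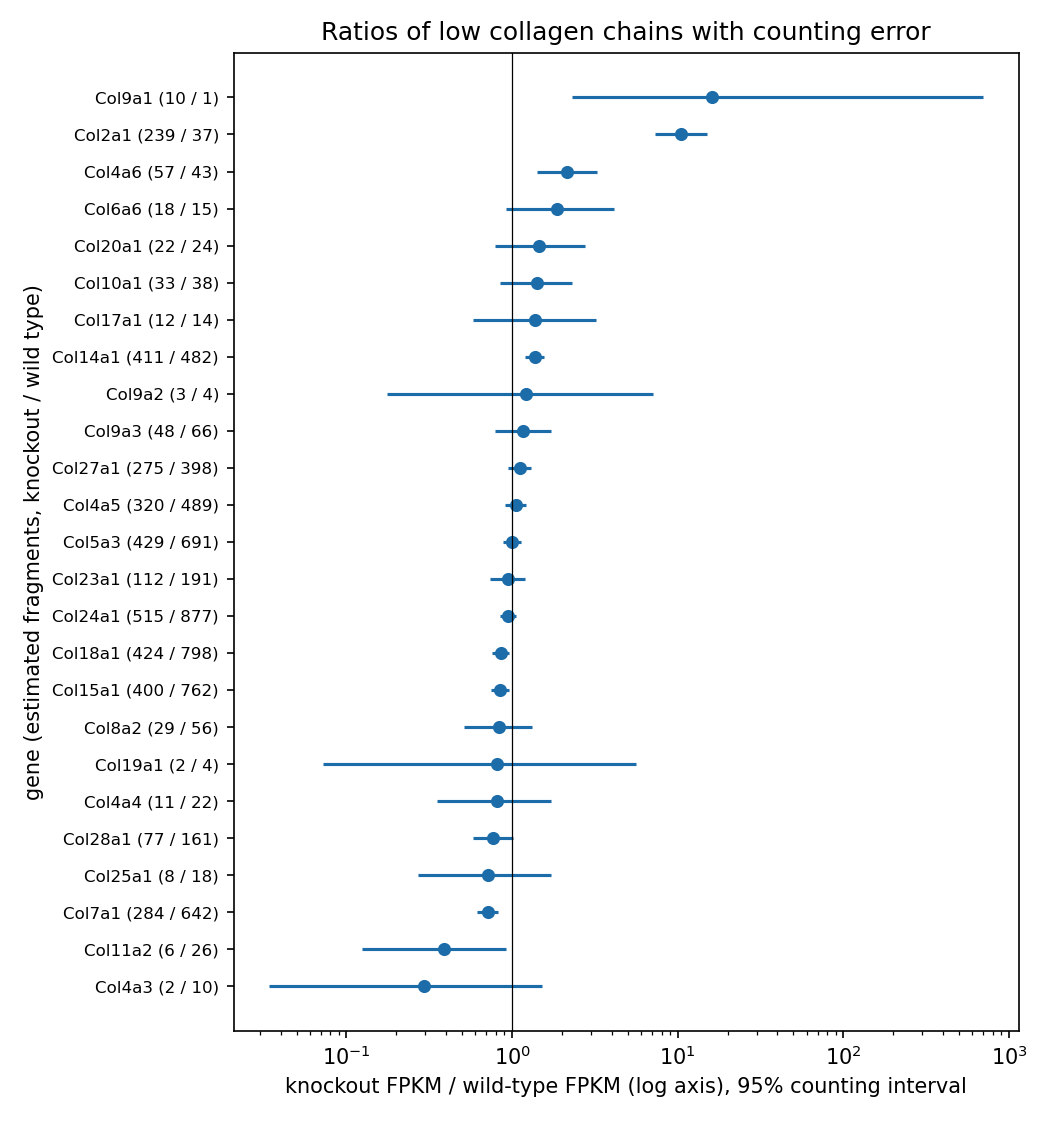
Ratio of knockout to wild-type FPKM (log axis) for the 25 collagen chains with a mean below 5 FPKM and fragments in both libraries, with exact 95% counting intervals and the estimated fragments of each library in the labels. Col2a1 (7.32 to 15.1), Col9a1 (2.29 to 697) and Col4a6 (1.41 to 3.24) lie clear above 1, and the widest intervals belong to chains with fewer than 5 fragments in at least 1 library.

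The promoters of 4 chains are shown. Col4a6 and Col9a1, both below 1 FPKM, had counting intervals above 1. Col4a5 is the near-equal neighbour that faces Col4a6 on chromosome X, and Col3a1 is an abundant near-equal chain. No chain with an interval below 1 is shown. The sequences are from RefSeq on GRCm38.p6, another build than the reads were aligned to, and run up to 250 bases upstream of the annotated start, with the 34 bases of Col4a5 that an annotated exon covers left out. They read from 5′ to 3′ on the gene's strand. Capitals mark the TATA box (TATAAA), the CCAAT box (CCAAT) or the GC box (GGGCGG) on either strand. Col4a6 lies at chrX:141474077-141474326 on the minus strand, Col4a5 at chrX:141475169-141475384, Col9a1 at chr1:24177360-24177609 and Col3a1 at chr1:45311288-45311537, these on the plus strand.
Col4a6: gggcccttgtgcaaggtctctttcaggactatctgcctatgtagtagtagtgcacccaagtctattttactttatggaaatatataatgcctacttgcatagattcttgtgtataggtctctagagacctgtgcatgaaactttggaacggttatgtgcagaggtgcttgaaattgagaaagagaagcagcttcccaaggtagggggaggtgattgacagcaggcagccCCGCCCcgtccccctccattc
Col4a5: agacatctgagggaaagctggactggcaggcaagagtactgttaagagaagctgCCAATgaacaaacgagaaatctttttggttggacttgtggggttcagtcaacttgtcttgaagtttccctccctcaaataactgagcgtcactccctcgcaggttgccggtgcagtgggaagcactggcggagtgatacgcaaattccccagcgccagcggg
Col9a1: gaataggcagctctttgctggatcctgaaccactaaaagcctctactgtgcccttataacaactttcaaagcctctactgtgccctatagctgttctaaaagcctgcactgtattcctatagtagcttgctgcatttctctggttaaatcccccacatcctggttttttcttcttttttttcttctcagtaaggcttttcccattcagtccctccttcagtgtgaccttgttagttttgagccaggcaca
Col3a1: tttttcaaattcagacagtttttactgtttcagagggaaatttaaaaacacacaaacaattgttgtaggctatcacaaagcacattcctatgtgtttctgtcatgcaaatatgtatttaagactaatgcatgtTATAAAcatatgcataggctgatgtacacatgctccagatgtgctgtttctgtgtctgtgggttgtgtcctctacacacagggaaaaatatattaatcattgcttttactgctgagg

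The Col4a6 stretch holds 1 GC box, the Col4a5 stretch 1 CCAAT box, the Col3a1 stretch 1 TATA box, and the Col9a1 stretch none of these letters. The left-out bases of Col4a5 hold a GC box, and a second RefSeq window of Col9a1, not printed, holds a CCAAT box. RefSeq windows were found for 33 of the 41 chains, in 36 windows. The chains not matched, and so in none of these counts, were Col1a1, Col2a1, Col4a3, Col5a2, Col9a3, Col12a1, Col14a1 and Col22a1. A GC box was present in 20 of the 36 (55.6%) beside 32.7% of all 32851 windows of that length, a CCAAT box in 12 (33.3% beside 33.8%) and a TATA box in 5 (13.9% beside 12.4%). The SMAD-binding letters CAGAC were present in 17 (47.2% beside 42.2%), and the SOX motif ACAATG in 1, that of Col28a1 (2.78% beside 10.7%). These matches, on both strands and free to overlap, describe letters and not occupied sites.

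Most genes that mature, process and bind collagen were also near-equal. All 47 list members were matched and 39 were measured, with a median log2 ratio of -0.06 (-0.05 over all measured genes), 11 above and 28 below 0, where 63.1% of all measured genes were below 0. At least 1.2-fold higher was 1 gene, Plod2 (background 5.54%), and at least 1.2-fold lower were 2, Tll1 and Itga2 (background 10.6%). Plod2, the lysyl hydroxylase that sets the cross-link type of collagen ends, was at 46.7 FPKM (knockout) and 37.2 FPKM (wild type) (log2 ratio 0.32). Tll1, a BMP1-like protease that removes procollagen propeptides, was at 4.04 against 6.77 FPKM (-0.63). Itga2, the collagen-binding integrin α2 chain, was at 1.18 against 2.50 FPKM (-0.68).

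The other measured genes of the maturation steps lay within 1.2-fold. The 10 prolyl hydroxylation genes had a median of -0.04, with P3h3 at 7.57 against 9.13 FPKM (-0.24), P4hb at 68.2 against 77.7 FPKM (-0.18) and Ppib, a prolyl isomerase, at 115 against 129 FPKM (-0.17). All 8 measured chaperone and export genes were below 0 (63.1% of all measured genes), with a median of -0.09, and Serpinh1, the collagen chaperone HSP47, was at 137 against 142 FPKM. Of 6 measured genes for propeptide removal 4 were below 0, a share near that of all measured genes, among them Tll1 and the procollagen N-proteinase gene Adamts2, at 14.2 against 16.8 FPKM (-0.23). The cross-linking enzyme gene Lox was at 415 against 433 FPKM. Mia3, Colgalt2, Tll2 and Gp6 were listed at 0 in both libraries.

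**Figure D4:**
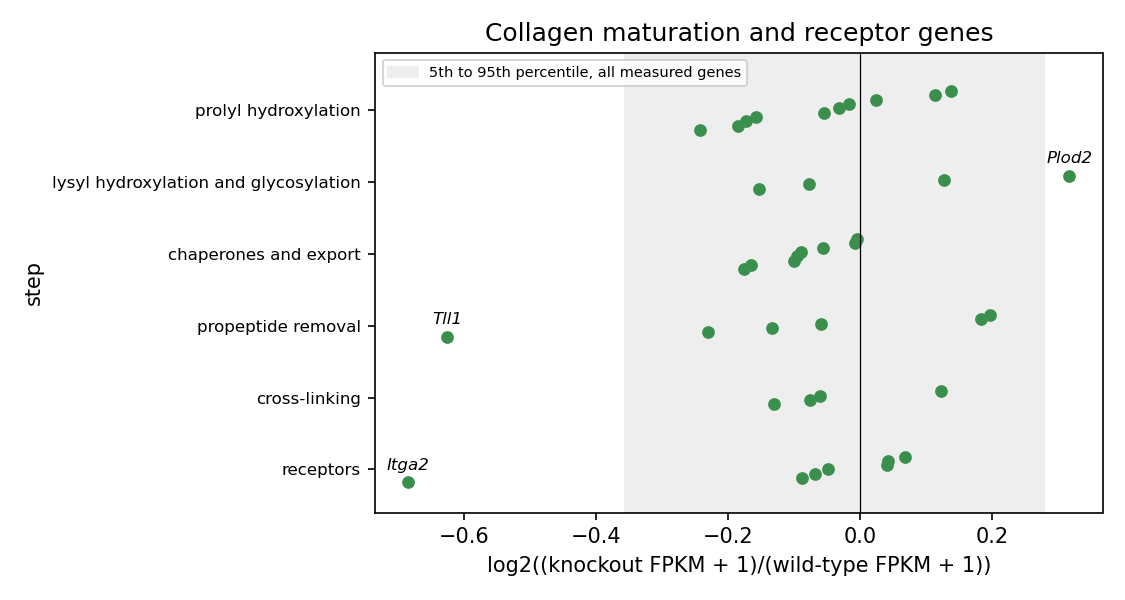
Log2((knockout FPKM + 1)/(wild-type FPKM + 1)) of the 39 measured collagen maturation and receptor genes, 1 dot per gene, in rows by step, with a grey band from the 5th to the 95th percentile (-0.36 to 0.28) of all measured genes. Plod2 (0.32), Tll1 (-0.63) and Itga2 (-0.68), the genes past 1.2-fold, lie outside the band and the others inside it.

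Every direction above is on the deposited FPKM scale, whose sums differ between the libraries by a log2 shift of 0.47. Scaled to a common FPKM sum, 18 of the 25 measured chains were at least 1.2-fold higher, none lower, the median gene stood at 0.34 and the median collagen chain at 0.41. Without small RNA names, ribosomal RNA and Dnaja1 in the sum, a scaling chosen after seeing the data, the shift was 0.03. On the common sum 13 chains went from below to above 0, among them Col12a1 (-0.25 to 0.21) and Col5a2 (-0.22 to 0.24). Col7a1 alone stayed below 0, at -0.02. The lower directions are therefore not fixed, while ratios between chains of 1 library do not depend on the scaling.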

How the data were processed

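Per the series' design text, Illumina reads were checked with FastQC and Trimmomatic, aligned with TopHat2 2.0.10 (also in the submitters' processing notes) to NCBI mouse build 37.2, quantified as FPKM with Cufflinks and compared with Cuffdiff2. Per the file headers, the authors deposited FPKM per gene and a p-value per gene in 1 table. The column headed WT also bears a -/- mark. It was read as the wild type on the strength of its WT name. Cufflinks divides fragments between near-identical genes, and library depth is not given in the sources used here.

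From the deposited FPKM, log2 ratios were computed with a pseudocount of 1 FPKM, and a mean of at least 1 FPKM counted as measured. The higher of repeated rows was kept. Types XV and XVIII were counted with basement membrane collagens. All measured chains are named, as are the 6 maturation and receptor genes with the largest differences above 5 FPKM. Itga2, Serpinh1, Lox, the genes listed at 0 and the cartilage markers were named after their values were seen. The members and lists were chosen with earlier results of these data known. Older names were matched through the RefSeq table of GRCm38.p6, which held all 41 chains, and transcript lengths came from GENCODE vM21, which is also on another build. Fragment steps fell within 0.2 of a whole number for 83.7% of 288 low single-transcript genes in the knockout library and 85.1% of 276 in the wild-type library. The step sizes were set from these same genes, so these shares are a description and no independent check. Scripts were tested on simulated data and run with Python 3.11.15, pandas 2.3.3 and scipy 1.17.1. Alternatives were another pseudocount, other scalings, other filters, summed repeated names and another grouping.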

Additional observations from a re-analysis of the deposited data

Results flagged for a closer look

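Some collagen rows left out by the name pattern or the choice of row were looked up by name and are listed here. All of them were higher in the knockout. No full search for left-out rows was made, and this shared direction was not tested. The second row named Col1a1 held 132 FPKM (knockout) and 94.7 FPKM (wild type), that is 0.48 on the log2 scale, and the authors' deposited table gave it a p-value of 0.63371. The row used for Col1a1 had a log2 ratio of -0.03. Col26a1, listed under its older name Emid2, was at 0.844 against 0.618 FPKM, and the authors' deposited table gave it a p-value of 0.323824. Col6a5, listed under an older name, was at 0.120 against 0.0448 FPKM, and the authors' deposited table gave it a p-value of 0.0280256. Col6a4, also under an older name, was at 0.0151 against 0.00938 FPKM, and the authors' deposited table gave it a p-value of 0.637826. Col26a1, Col6a5 and Col6a4 lie below 1 FPKM, and no counting interval was made for them. None of these differences had a replicate check.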

How the results depend on the processing

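With 1 library per genotype no replicate could be left out. No paired analysis was possible because each group has 1 sample. Values without a spread were taken as kept when they moved by at most 0.1, and counts when within 1.5 times. On a common FPKM sum the chains at least 1.2-fold higher numbered 18 and lower 0, and the medians were 0.41 for all measured chains, 0.44 fibrillar, 0.39 basement membrane, 0.59 microfibrillar, 0.43 FACIT and 0.13 other. A pseudocount of 0.1 FPKM gave 2 lower chains, and Col2a1 then stood at 2.97. With a mean of 5 FPKM or more, 14 chains were left, 0 were higher and 0 lower by 1.2-fold, since Col2a1, Col14a1 and Col7a1 fall below that level, and the medians were -0.11 for FACIT and 0.10 for other collagens. Collagen chains held 0.940% of the summed FPKM in the knockout against 0.696% in the wild type, and 1.36% and 1.26% without small RNA names in the sum. The other 55 of 70 values for counts, medians and shares were kept. Of the 25 measured chains, 13 changed sign on the common sum, 4 when centred on the median gene, 5 on a common upper quartile, 3 on the sum without small RNA names, ribosomal RNA and Dnaja1 and 1 (Col1a1) with repeated names summed. None of the 3 chains past 1.2-fold changed sign under any of these. Depth limits the chains below 1 FPKM, where at most 66 fragments stand behind a value.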
